A study of Mus musculus with 12 samples.

Results

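The microRNAs described here run from miR-680 to miR-721 and were assayed in the epididymal fat pads of male C57BL/6J mice. They were chosen by number alone: every assay in that range was taken except those of miR-690, miR-706, miR-712 and miR-714. The rule gave 32 of the 504 microRNA assays in the table, for 31 microRNA numbers, since both arms of miR-693 were measured. Many of these microRNAs are not conserved outside rodents.

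Each of the 4 groups was represented by 3 pooled RNA samples from 12 mice. The control group (CD) ate a purified diet with 10% of its energy from fat. The high-fat diet held 45%, and mice met it through the dam in utero (UT), from mating to weaning (UL), or from mating until the end of the experiment at 23 weeks of age (WL). The mice were wild type, and none of the groups carried a transgene. Exposure of the UT and UL mice had ended by birth or by weaning. The labels give an age of 23 weeks at the end for WL, and week 23 was taken as the end for all 4 groups. The labels do not say which mice or litters entered which pool, so p-values measure the spread between these pools.

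A microRNA is cut from a hairpin precursor and guides the silencing machinery to messenger RNAs that pair with its seed, bases 2 to 8 from its 5′ end. Either arm of the hairpin (5p or 3p) can be loaded, and usually the arm that is kept is far more abundant than the other. MicroRNAs of high number in mice were mostly found by sequencing and by cloning from particular tissues, many have young or repeated hairpins, and for most of them little is known in fat.

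RefSeq held a mature sequence under the same name for 29 of the 32 assays; miR-684, miR-694 and miR-696 were not matched. The sequences below are of the members on which the results turn, with the seed in capitals. The first set holds miR-718 and miR-705, which lay early in the PCR in every group, and miR-703, which was late in a lone pool only. It also holds miR-713 and miR-707, which came far earlier in a lone pool than in their other pools.
miR-718: cUUCCGCCcggccgggugucg
miR-705: gGUGGGAGguggggugggca
miR-703: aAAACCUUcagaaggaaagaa
miR-713: uGCACUGAaggcacacagc
miR-707: cAGUCAUGccgcuugccuacg

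The next set are the members whose pools in at least 1 high-fat group separated from the control pools, together with miR-693-3p, the opposite arm of miR-693-5p.
miR-693-5p: cAGCCACAuccgaaaguuuuc
miR-693-3p: gCAGCUUUcagauguggcuguaa
miR-692: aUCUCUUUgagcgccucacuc
miR-691: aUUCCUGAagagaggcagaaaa
miR-686: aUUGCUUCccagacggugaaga
miR-702-3p: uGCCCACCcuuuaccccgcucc
miR-697: aACAUCCUgguccuguggaga
miR-698-3p: cAUUCUCGuuuccuucccu
miR-687: cUAUCCUGgaaugcagcaauga

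The last set shows miR-721 beside the matched microRNAs of the table with the same seed, AGUGCAA. This is the seed of the miR-130 and miR-301 family, repressors of the adipocyte regulator Pparg. MiR-301b-3p was assayed too, but no sequence was matched to it by name, so its seed was not compared.
miR-721: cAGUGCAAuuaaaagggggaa
miR-130a-3p: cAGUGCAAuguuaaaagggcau
miR-130b-3p: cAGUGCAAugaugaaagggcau
miR-301a-3p: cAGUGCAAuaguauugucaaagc

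Among the matched assays, miR-721 was the sole member whose seed was shared with another. In 28 of 29 members (96.6%) the seed occurred in no other matched assay, against 244 of 363 other microRNAs (67.2%). The members were short and rich in G and C: their median length was 21 bases against 22, and their median content of G and C was 52.4% against 47.6%. A content of 60% or more was found in 8 of 29 members (27.6%) and 50 of 363 other microRNAs (13.8%). The mature sequence began with U, the base that the silencing protein Argonaute favours at that place, in 4 of 29 members and in 144 of the 363 others (39.7%). These shares describe the sequences and were not tested.

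The 29 members had 34 loci on 14 chromosomes of the mouse build GRCm38.p6. Of the members, 23 lay within the span of a protein-coding gene; the annotation used here gives spans only, so exon, intron and host strand are not stated. MiR-693 lay within Xpo5 (chr17:46231551-46231571 for the 5p arm, + strand), which encodes the exportin that carries microRNA hairpins out of the nucleus. MiR-707 lay within Akt1s1 (chr7:44849705-44849725, + strand), which encodes the mTORC1 component PRAS40. MiR-718 lay within Irak1 (chrX:74023857-74023877, - strand), a kinase of Toll-like receptor signalling, and miR-721 within Cux1 (chr5:136375777-136375797, - strand). MiR-697 lay within Sf3a3, a splicing factor, and miR-698-3p within Inpp5b, an inositol phosphatase, 12064 bases away on chromosome 4. MiR-692 had 3 loci, and those on chromosomes 4 and 13 lay within ferritin light chain pseudogenes. MiR-680 had 3 loci and miR-683 had 2, none within another gene.

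Levels are threshold cycles turned around: the Ct of an assay was subtracted from the mean Ct of all microRNAs measured in every pool. This relative level is in cycles on the log2 scale, so 1 cycle stands for a 2-fold step if the PCR doubles at each cycle, and 0 is the level of the average microRNA. Of the pools, the fewest members, 30, were measured in CD 1 and WL 2. The median Ct over all microRNAs ranged from 24.6 in UT 2 to 25.3 in UT 3. The number of pools limits the precision. Checked against markers of the tissue, endothelial miR-126a lay high (6.97 and 7.47 for its arms), the testis and epididymis list had pool medians from -1.52 to 0.19, and the epithelial list had pool medians from 0.11 to 4.67. Erythroid miR-451a also lay high, with a mean level of 5.60. Pool medians ran from -0.0035 to 0.83 for the leukocyte list, from -3.60 to -1.87 for skeletal muscle and from -4.44 to -1.86 for liver. The mean of the epithelial pool medians for CD was 3.08, for UT 1.06, for UL 3.07 and for WL 3.49. For the testis and epididymis list the means were -1.03, -0.20, -1.22 and -1.15 in the same order, and for the list of microRNAs abundant in fat 3.86, 3.14, 3.75 and 3.84. The part of these lists in the members' values was not tested. MicroRNAs have no marker that defines adipocytes alone. In bulk samples fewer cells of a type and less RNA per cell cannot be told apart.

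The members spanned nearly the whole range of the table. Their mean levels ran from 7.06 for miR-718 to -8.06 for miR-688, with a median of 0.39 against -0.30 for the other microRNAs. Mean levels above 5 were found for 3 of 32 members, miR-718, miR-696 and miR-705 (9.38% against 10.8% of the others). MiR-703 had a mean of 4.80, which a lone pool (WL 2 at -6.83) pulled down, and a median of 5.89. This is an order of Ct, and because PCR efficiency can differ from assay to assay it is not an order of amounts.

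**Figure D1:**
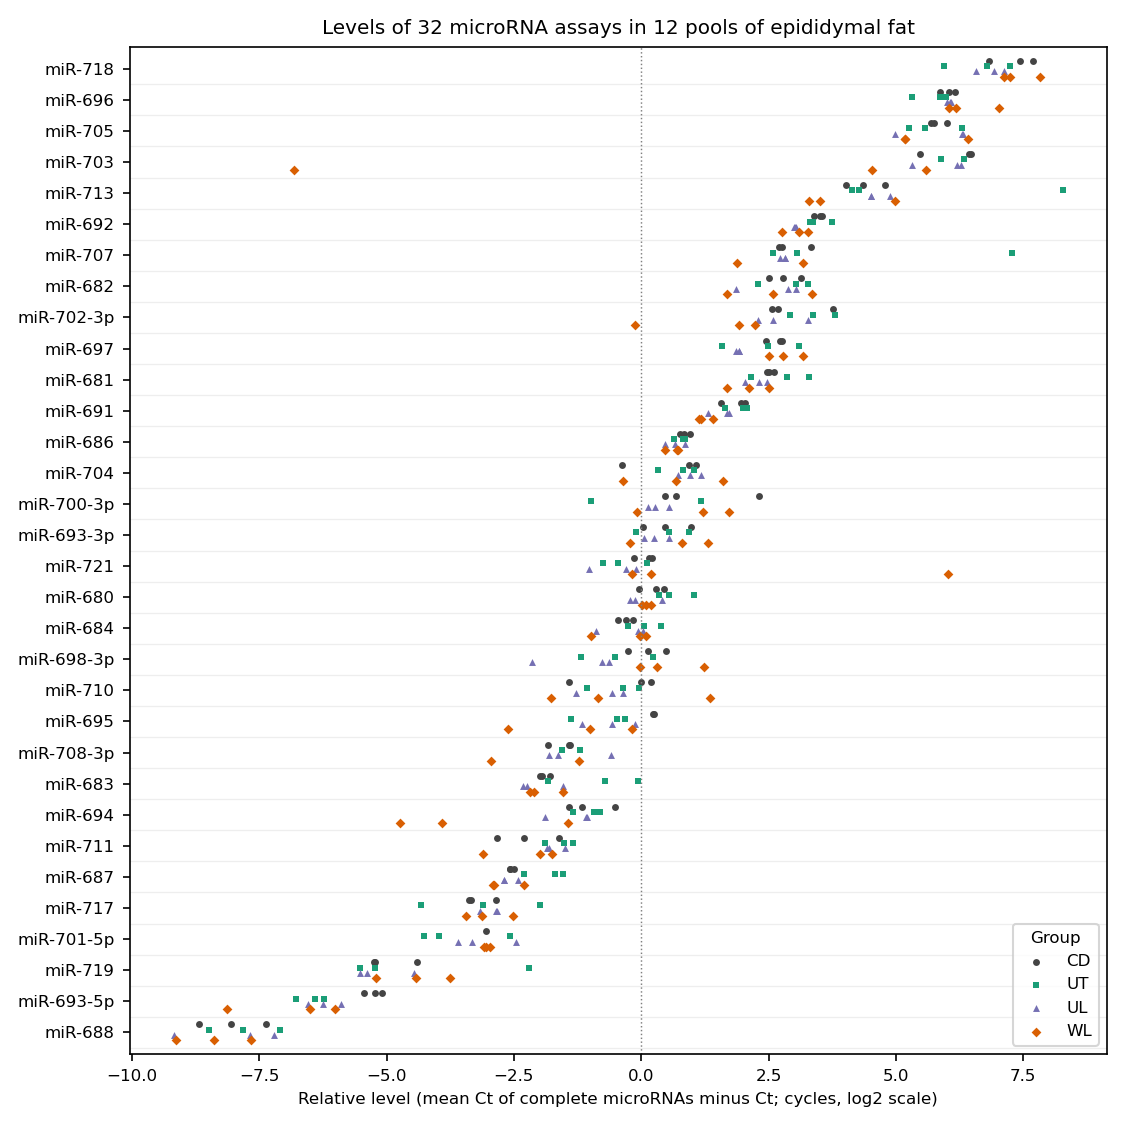
Relative level (x axis, cycles on the log2 scale) of each of the 32 assays (rows, ordered by mean level) in the 12 pools; each point is a pool, coloured and shaped by group. The rows run from miR-718 at 7.06 to miR-688 at -8.06, and points far from their row are seen for miR-703 in WL 2, miR-707 and miR-713 in UT 3 and miR-721 in WL 3.

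MiR-718, one of the members whose number is also used for a human microRNA, lay at 7.70, 7.43 and 6.84 in CD 1 to 3, at 7.24, 6.78 and 5.94 in UT, at 7.12, 6.92 and 6.57 in UL and at 7.25, 7.82 and 7.13 in WL. UT 3 was its lowest pool, and every group overlapped the control pools. MiR-696, reported to repress Pparg coactivator Ppargc1a in muscle, lay between 5.86 and 6.17 in CD, 5.31 and 5.97 in UT, 5.99 and 6.08 in UL and 6.05 and 7.03 in WL. Its UT pools lay below its UL and WL pools and overlapped those of CD. MiR-705, reported in marrow stromal cells that choose between bone and fat, lay between 5.70 and 6.00 in CD, and its other groups spread on both sides of that range, from 4.97 in UL 1 to 6.42 in WL 1.

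Over the 12 pools the non-members most like miR-718 were miR-505-3p (Pearson r = 0.88), miR-30e-5p (0.84) and miR-30a-5p (0.81). Those most like miR-696 were miR-10b-5p (0.84), miR-489 (0.84) and miR-505-3p (0.80). These correlations describe 12 pools that share groups and scaling, and were picked as the highest among all complete assays.

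At the late end, miR-688 had Ct values up to 34.12 in WL 3 and a mean level of -8.06, miR-693-5p one of -6.21, miR-719 one of -4.72 and miR-701-5p one of -3.24 (10 pools). Between these ends lay, among members not described elsewhere, miR-682 at 2.70, miR-681 at 2.42, miR-704 at 0.71, miR-680 at 0.25, miR-684 at -0.22, miR-710 at -0.52 and miR-717 at -3.08. MiR-693 was the single hairpin with both arms measured. Its 3p arm came earlier than its 5p arm in 12 of 12 pools, by 6.68 cycles on average (range 5.26 to 9.44).

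Across the 29 members with a sequence, a higher content of G and C went with a higher mean level (Pearson r = 0.47); across 363 other microRNAs r was 0.26. Assays share the pools and the scaling, and are not independent replicates. The most G-rich member, miR-705 with 14 G in 20 bases, and miR-718 with 81.0% G and C had the highest mean levels of the matched members. MiR-703 with 33.3% lay apart from this order. Its mean of 4.80 includes a lone low pool, WL 2 at -6.83, and its median of 5.89 was above that of miR-705 (5.73).

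**Figure D2:**
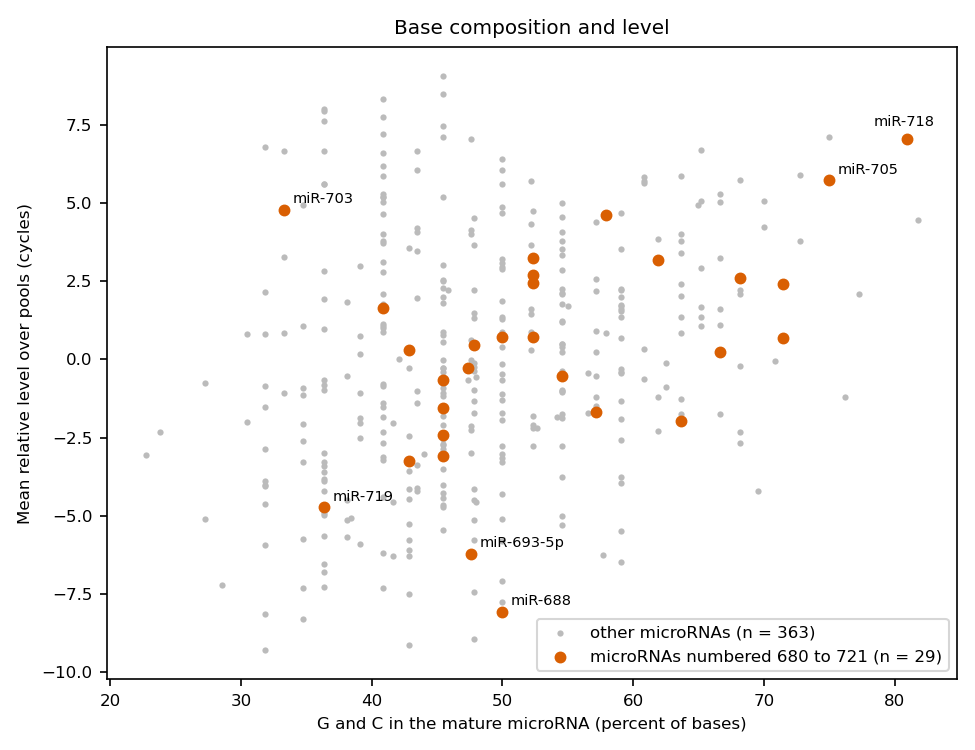
Mean relative level over pools (y axis, cycles) against the percent of G and C in the mature sequence (x axis); orange points are the 29 members with a sequence and grey points 363 other microRNAs. MiR-718 and miR-705 lie at the upper right, miR-719 at the lower left and miR-703 at high level with few G and C.

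The spread between pools of a group differed widely between members. MiR-686, within the proteasome subunit gene Psmb5, had a within-group SD of 0.142 cycles, the smallest of all 504 microRNAs. It lay between 0.47 in UL 1 and WL 2 and 0.95 in CD 3, a range smaller than 1 cycle over all 12 pools. MiR-692 (SD 0.181) and miR-691 (SD 0.217) ranked 3 and 7 among all microRNAs. At the other end stood miR-703 (SD 3.47), miR-721 (1.77), miR-707 (1.43) and miR-713 (1.28). The median SD of the members was 0.62, against 0.53 for the other microRNAs, and a value was missing in 5 members (15.6%) against 6.99% of the other assays. The 5 were miR-701-5p (CD 1 and CD 3), miR-708-3p (UT 3 and WL 2), miR-695 (CD 1), miR-700-3p (UT 1) and miR-707 (WL 2).

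The first comparison asked which members differed after a high-fat diet kept from mating to 23 weeks. In WL, levels below the control range were the rule among the members whose pools separated: miR-693-5p, miR-694, miR-702-3p, miR-691, miR-692 and miR-686 had their 3 WL pools below the 3 control pools, and no member had them above. None of the 32 members passed the test against CD (limma with Benjamini-Hochberg adjustment over all 504 microRNAs, threshold 0.05), where 0.595% of all microRNAs passed. At an unadjusted p under 0.05, 5 members were found, 5 of them lower, which is 15.6% against 7.14% of all microRNAs. The separated members were 6 of 28 measured in all pools of both groups (21.4%), against 5.2% of all microRNAs separated downward, and 0 of 28 against 5.82% separated upward. The median log2 fold change of the members was -0.18, and that of all microRNAs -0.06. Without WL 3 the members' median was 0.03, and with neighbouring assays of the table subtracted it was 0.07. Of the separated members, miR-691, miR-692, miR-693-5p and miR-694 stand close together in the table, where neighbouring members moved together, as described below.

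MiR-693-5p lay at -5.10, -5.44 and -5.23 in CD and at -6.51, -8.13 and -6.01 in WL. All WL pools lay below all CD pools, WL 2 farthest. Group means were -5.25 ± 0.17 in CD and -6.88 ± 1.11 in WL (SD, n = 3 each), which differ by -1.63 on the log2 scale (SE 0.47, limma adjusted p = 0.303). Without WL 2 it was -1.005 (limma adjusted p = 0.368). Its Ct values were late, 29.89 to 30.23 in CD and 31.00 to 33.04 in WL.

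MiR-694 lay at -1.41, -0.52 and -1.17 in CD and at -3.90, -4.75 and -1.43 in WL. WL 1 and WL 2 lay below every pool of the other groups, while WL 3 lay just under the lowest control pool. The log2 change was -2.33 (SE 0.68, limma adjusted p = 0.303), with means of -1.03 ± 0.47 in CD and -3.36 ± 1.72 in WL (SD, n = 3 each). Without WL 3 it was -3.28 (SE 0.42, limma adjusted p = 0.00127), and miR-694 was then the 1 member that passed; over all alternatives its adjusted p ranged from 0.00127 to 0.799. With weights per pool it was -2.94 (SE 0.52, limma adjusted p = 0.0143). WL 3 was also the pool in which most members, 9 of 32, had their lowest level, and where 18 values of the whole table lay more than 3 cycles from their assay's median. In WL 2 these counts were 7 of 32 members and 6 values. The members' mean distance from their medians was 1.10 cycles in WL 2 and 0.85 in WL 3. With each pool left out in turn, the log2 change of miR-694 against CD ran from -3.28 to -1.63.

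MiR-702-3p, within the collagen-modifying enzyme gene Plod3, lay at 3.77, 2.67 and 2.56 in CD and at 2.23, -0.12 and 1.92 in WL. Every WL pool lay below every CD pool, and WL 2 lay apart. The log2 change was -1.66 (SE 0.59, limma adjusted p = 0.407), or -0.93 without WL 2. MiR-695 showed a log2 change of -1.51 (SE 0.64, 2 CD pools, limma adjusted p = 0.608), led by WL 1 at -2.61; without WL 1 it was -0.84. MiR-691 had -0.62 (SE 0.28, limma adjusted p = 0.653), and -0.26 with neighbouring assays of the table subtracted.

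**Figure D3:**
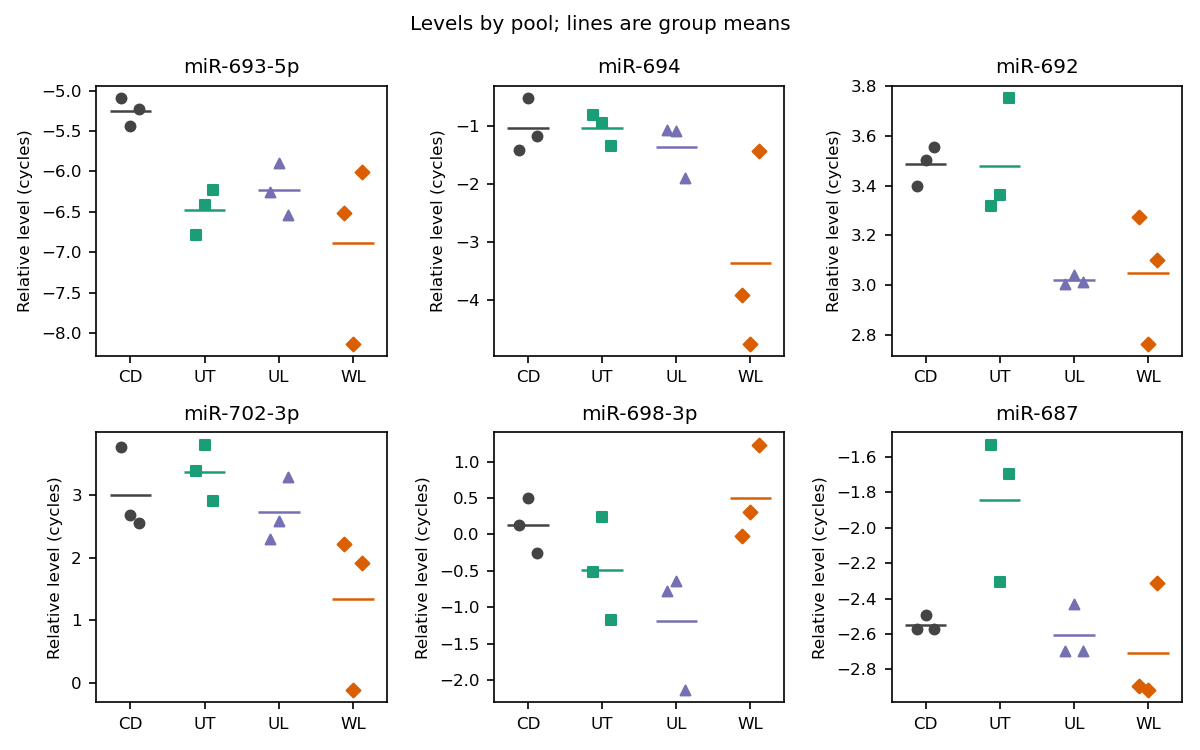
Relative level (y axes, cycles, with a scale of its own in each panel) of 6 members in the 4 groups; points are pools and lines are group means. MiR-693-5p lies lower in all 9 high-fat pools than in the 3 CD pools, miR-694 lies low in WL 1 and WL 2 only, and miR-692 lies lower in UL and WL than in CD and UT.

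The second comparison asked which members differed when exposure had stopped at weaning. In UL, miR-698-3p, miR-697, miR-692 and miR-693-5p lay lower in 3 of 3 pools than in every CD pool, and no member lay higher. None of the 32 members passed the same test (limma adjusted p 0.995 or more), where 0.595% of all microRNAs passed; 1 member had an unadjusted p under 0.05 (3.12% against 2.78%). The separated members were 4 of 30 (13.3%), against 4.24% of all microRNAs downward, and 0 of 30 against 3.64% upward. These 4 stand close together in the table, from miR-692 to miR-698-3p, where neighbouring members moved together, as described below. Of the 8 members from miR-693-3p to miR-700-3p, 6 lay below their median in UL 1, 2 in UL 2 and 8 in UL 3. The members' median log2 fold change was -0.20, against -0.07 for all microRNAs. With RNU-43, a small nucleolar RNA, as the reference the signs turned, to 0.15 and 0.30. WL, UL and UT are set against the same 3 control pools, so a control pool that stands high or low moves all of these comparisons.

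MiR-698-3p lay at 0.13, 0.49 and -0.25 in CD and at -0.78, -0.64 and -2.14 in UL. All UL pools were lower, UL 3 most, and the log2 change was -1.31 (SE 0.51, limma adjusted p = 0.995); without UL 3 it was -0.83. MiR-697, which lies on the same stretch of chromosome 4, was tight in UL at 1.91, 1.92 and 1.86, below 2.45, 2.76 and 2.73 in CD. Its log2 fold change was -0.75 (SE 0.37, limma adjusted p = 0.995), -0.39 with RNU-43 as the reference and -0.33 with neighbouring assays subtracted. In WL both had log2 fold changes above 0: against UL, miR-698-3p had 1.69 (SE 0.51, limma adjusted p = 0.805) and miR-697 had 0.92 (SE 0.37, limma adjusted p = 0.805), and in both the 3 WL pools lay above the 3 UL pools. With RNU-43 as the reference that of miR-697 was 0.58.

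MiR-692 lay at 3.40, 3.50 and 3.56 in CD and at 3.00, 3.04 and 3.01 in UL. The groups were apart by more than the spread within either, at a small difference: a log2 change of -0.47 (SE 0.26, limma adjusted p = 0.995), or -0.10 with RNU-43 as the reference. In WL it lay at 3.28, 2.76 and 3.10, a log2 change of -0.44 (SE 0.26, limma adjusted p = 0.764), or -0.13 with neighbouring assays subtracted and -0.30 without WL 2. In UT it lay at 3.32, 3.36 and 3.75, within or around the control range. Every pool exposed through lactation, in UL and WL, thus lay below every pool of CD and UT. This pattern was singled out after the values were seen; it held in 1 of 27 members measured in all pools and in 0.429% of all 466 such microRNAs, with 0% in the opposite direction.

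The third comparison asked which members differed after exposure in utero alone. In UT, miR-687 lay higher and miR-693-5p lower in 3 of 3 pools than in every CD pool. None of the 32 members passed (limma adjusted p 0.395 or more), where 1.39% of all microRNAs passed, and 3 members had an unadjusted p under 0.05 (9.38% against 10.1%). The separated members were 1 of 28 upward (3.57% against 7.08%) and 1 of 28 downward (3.57% against 6.88%). The members' median log2 fold change was 0.03, against -0.01 for all microRNAs. With RNU-43 as the reference the medians were 0.74 and 0.73, so values in UT are relative to the average microRNA. UT was also the group in which the epithelial list (1.06 against 3.08 in CD) and the fat-abundant list (3.14 against 3.86) lay low and the testis and epididymis list lay high (-0.20 against -1.03); their part in these values was not tested.

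MiR-693-5p lay at -6.78, -6.42 and -6.23 in UT, -1.22 on the log2 scale against CD (SE 0.47, limma adjusted p = 0.395), or -0.48 with RNU-43 as the reference. In UL it lay at -6.25, -5.90 and -6.54, a log2 change of -0.97 (SE 0.47, limma adjusted p = 0.995), or -0.59 with neighbouring assays subtracted and -0.61 with RNU-43. All 9 pools from mice exposed to the high-fat diet therefore lay below all 3 control pools. This was singled out after the values were seen: of 466 microRNAs measured in all pools, 0.215% were separated in this direction, which was miR-693-5p alone, and 1.5% in the opposite one. The partner arm miR-693-3p overlapped the control pools in every group, with means for CD of 0.50 ± 0.48, for UT of 0.46 ± 0.53, for UL of 0.29 ± 0.24 and for WL of 0.63 ± 0.78 (SD, n = 3 each). The level of 3p over 5p for CD was 5.75 ± 0.60 cycles, for UT 6.94 ± 0.71, for UL 6.51 ± 0.25 and for WL 7.51 ± 1.83 (SD, n = 3 each), and these ranges overlapped.

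MiR-687, within the retinoblastoma gene Rb1, lay at -2.57, -2.50 and -2.57 in CD and at -1.53, -2.31 and -1.70 in UT. All UT pools were higher, UT 2 least, and the log2 change was 0.70 (SE 0.30, limma adjusted p = 0.451). Its levels in UL and WL overlapped those of CD, and against UT its log2 fold change was -0.76 in UL (SE 0.30, limma adjusted p = 0.539) and -0.86 in WL (SE 0.30, limma adjusted p = 0.262). With neighbouring assays subtracted these were -0.43 and -0.44, and with RNU-43 as the reference the value against CD was 1.44 in UT and that against UT was -1.59 in WL. MiR-683, with 2 copies on chromosome 13, lay at -1.95, -1.99 and -1.78 in CD and at -0.71, -1.84 and -0.06 in UT. UT 2 overlapped the control pools, and the log2 change of 1.04 (SE 0.43, limma adjusted p = 0.435) was 0.63 without UT 3 and 1.78 with RNU-43 as the reference. MiR-718 showed a log2 change of -0.67 (SE 0.39, limma adjusted p = 0.612), -0.31 without UT 3, and 0.07 with RNU-43 as the reference.

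**Figure D4:**
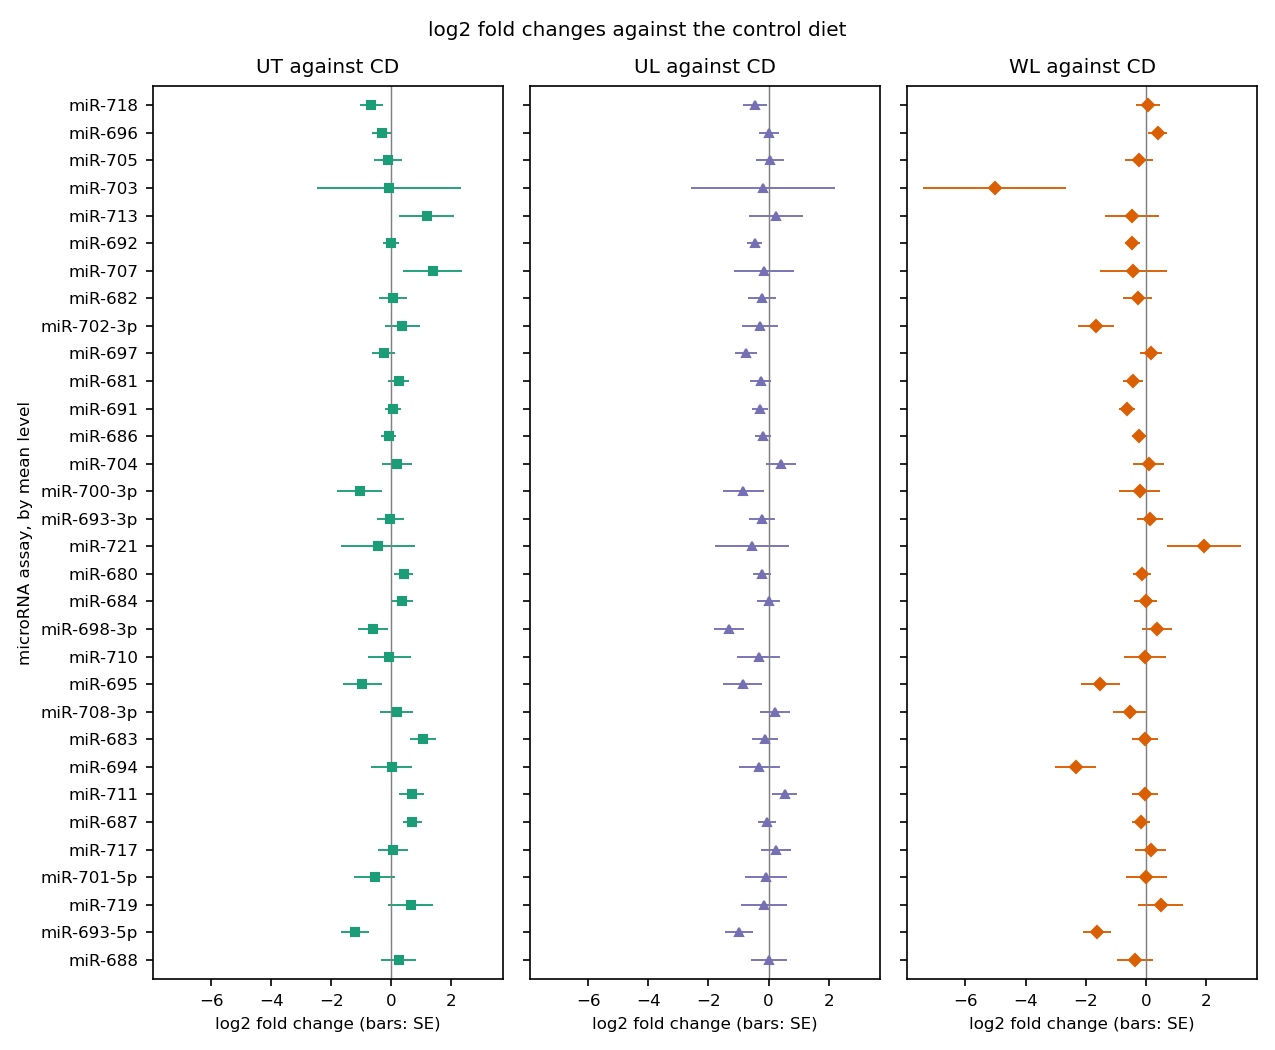
Log2 fold change against CD (x axes; bars are the limma SE) of the 32 assays (rows, by mean level) in UT, UL and WL. None passed the adjusted threshold. MiR-693-5p lies below 0 in all 3 panels, and the wide bars of miR-703, miR-707, miR-713 and miR-721 go with values that stand apart in a lone pool. The SE uses a spread shared by the 4 groups, so such a pool widens the bars in all 3 panels, also for groups without it.

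Set against each other, the high-fat groups gave 0 of 32 members past the threshold in every pair, where 0% of all microRNAs passed, and 0 in the F test over the 4 groups, where 0.397% passed. At an unadjusted p under 0.05 there were 2 members for UL against UT (7.94% of all microRNAs), 4 for WL against UL (5.36%), 5 for WL against UT (15.7%) and 4 in the F test (9.92%). The 4 in the F test were miR-694, miR-702-3p, miR-693-5p and miR-698-3p, with limma adjusted p from 0.318 to 0.439. For WL against UT, miR-694 showed a log2 change of -2.33 (SE 0.68) and miR-702-3p one of -2.02 (SE 0.59), each with a limma adjusted p of 0.192; without WL 2 the latter was -1.29. Without WL 3, miR-694 passed against UT (-3.28, limma adjusted p = 0.00116) and against UL (-2.96, limma adjusted p = 0.0129). All WL pools lay below all UT pools in 7 of 29 members (24.1% against 9.34% of all microRNAs) and above them in 1, miR-696 (against 9.98%). They lay above all UL pools in 3 of 30 members, miR-697, miR-698-3p and miR-718 (against 6.38%), and below them in 1, miR-702-3p (against 3.5%). UL pools lay below all UT pools in 2 of 30, miR-687 and miR-692 (against 8.52%), and above them in 1, miR-696 (against 4.78%).

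Members with a human microRNA of the same number were miR-708-3p, miR-711 and miR-718. MiR-708-3p, the passenger arm from the teneurin gene Tenm4, had a CD mean of -1.56 ± 0.24 (SD, n = 3), a UT mean of -1.38 ± 0.24 (n = 2), a UL mean of -1.34 ± 0.66 (n = 3) and a WL mean of -2.09 ± 1.23 (n = 2). For miR-711, within the collagen gene Col7a1, CD stood at -2.26 ± 0.61, UT at -1.59 ± 0.27, UL at -1.72 ± 0.20 and WL at -2.28 ± 0.73 (SD, n = 3 each). The groups overlapped in both. Of the numbers left out of the rule, miR-712-5p, miR-690, miR-714 and miR-706 lay higher than every member, at 9.41, 9.08 (9 pools), 8.62 and 8.02, and none passed against CD (limma adjusted p 0.724 or more over all 5 such assays).

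Values far from an assay's other pools were found in 6 members (18.8%), each in a lone pool, against 10.4% of the other microRNAs; far means more than 3 cycles from the median. MiR-703 had a Ct of 31.74 in WL 2 and of 18.37 to 20.47 in the other 11 pools. Its log2 fold change in WL was -5.02 (SE 2.39, limma adjusted p = 0.667), and -1.06 without WL 2. MiR-721, the member with the seed of the miR-130 family, had a Ct of 18.97 in WL 3 and of 24.52 to 25.90 elsewhere. Its log2 fold change in WL was 1.94 (SE 1.24, limma adjusted p = 0.812), and -0.06 without WL 3. Among the matched assays with its seed, log2 fold changes in WL were -0.06 for miR-130a-3p, -0.15 for miR-130b-3p and 0.26 for miR-301a-3p (limma adjusted p 0.978 or more).

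In UT 3 a pair of members came early together: miR-707 had a Ct of 17.79 against 21.46 to 23.11 in its other pools, and miR-713 one of 16.79 against 19.91 to 21.70. Their log2 fold changes in UT were 1.37 (SE 0.99, limma adjusted p = 0.708) and 1.17, and without UT 3 they were -0.11 and -0.18. MiR-719 had a Ct of 26.84 in UT 1 against 28.75 to 30.59 elsewhere, and its log2 fold change in UT went from 0.64 to -0.41 without UT 1. MiR-694 in WL 2, described above, was the sixth. Whether such values come from the tissue or from the reaction was not tested.

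Members that stand near each other in the table moved together between pools of the same group. Neighbours here are successive assays among the 466 measured in all pools, so assays with a missing value were passed over. The median correlation of neighbouring members, over the 12 pools after removing group means, was 0.41 (24 pairs), against 0.17 for other neighbouring assays (441 pairs), 0.05 for all pairs of members and -0.01 for all pairs of assays. These correlations share pools and scaling and are a description. Split by number after the values were seen, the 10 members from miR-680 to miR-692 lay above their median in UT 3 in 10 of 10 and in UT 1 in 9 of 10, and below it in WL 3 in 9 of 10. The 8 from miR-693-3p to miR-700-3p lay below it in UL 3 in 8 of 8 and in UT 3 in 7 of 8. The 14 from miR-701-5p to miR-721 were above it in CD 1 in 12 members and below it in CD 3 in 12. The order of the table is by number, and no source used here says where the assays lay on a plate.

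**Figure D5:**
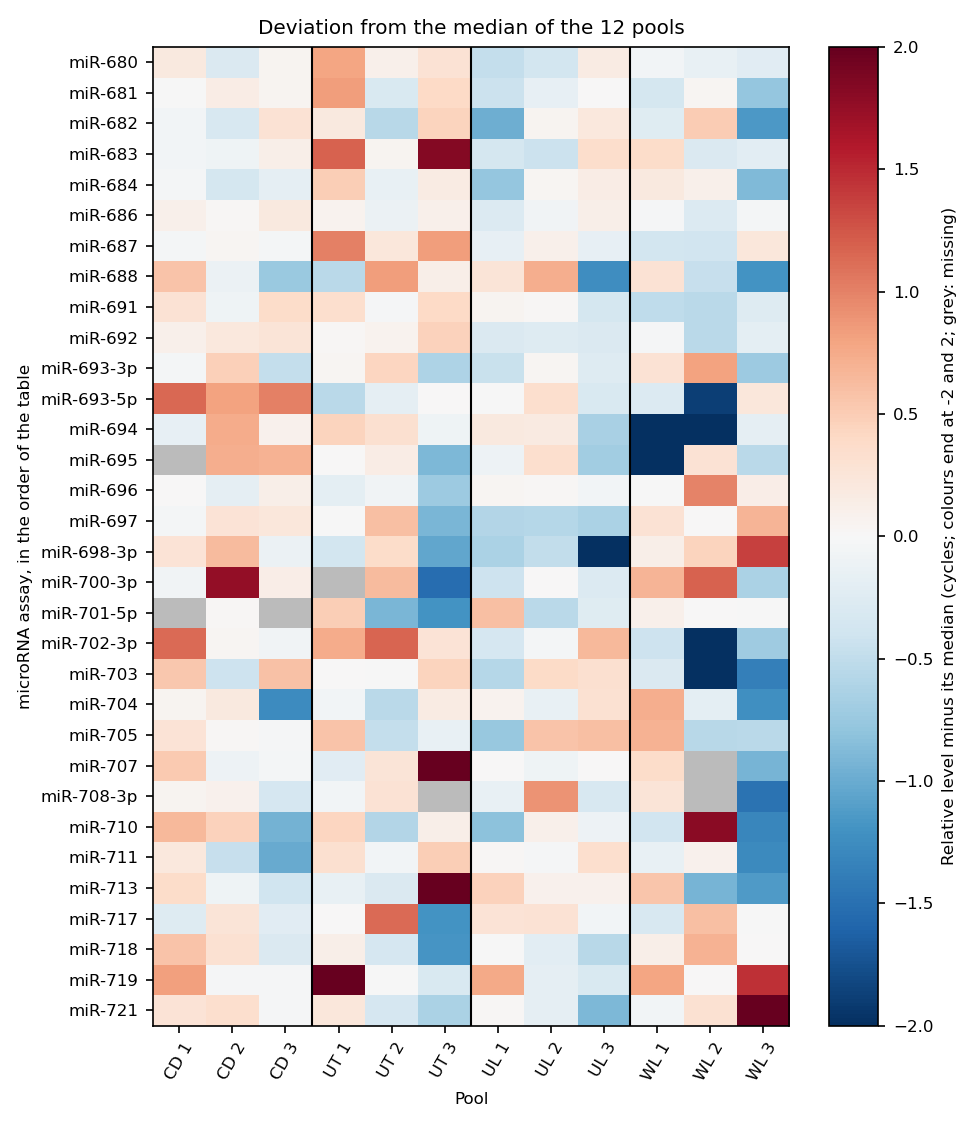
Relative level minus its median over the 12 pools (colour, cycles, ending at -2 and 2; grey is missing) for the 32 assays in the order of the table (rows) and the 12 pools (columns, grouped by diet). Runs of neighbouring rows share a colour within a pool, such as miR-680 to miR-692 in UT 3, and miR-693-5p is red in the 3 CD pools.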

How the data were processed

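MicroRNAs were measured by quantitative RT-PCR in 12 pools. Per the labels' protocols, about 22 mg of tissue went into the miRNeasy extraction; for platform, chemistry and threshold rule, nothing is given in the sources used here. The authors deposited Ct scores before normalization, per the file headers, and these were used. Of 507 rows, 1 repeated another. The deposited normalized ratio, per the file headers 2 to the power of minus delta Ct, rose with Ct in every pool (Ct minus its log2 was constant within 0.01 cycles), so its direction is opposite to the header; it was not used otherwise. The mean Ct of the 466 microRNAs measured in all pools was subtracted, and the sign turned. Groups were compared with limma 3.58.1 (R 4.3.3) in a single model of 4 groups, two-sided, with missing values left missing calling adjusted p-values under 0.05. The script was tested on simulated data. Members, lists and the rule for named members were chosen with earlier results of these data known. Named are the 4 members with the smallest unadjusted p in each comparison with CD, the 6 highest, 4 lowest and 4 most variable, both arms, missing values and listed numbers; miR-686, miR-691 and members named for separated or outlying pools were chosen after their values were seen. Sequences are RefSeq's for GRCm38.p6. miR-685, miR-689, miR-699, miR-709, miR-715, miR-716 and miR-720 were not analysed here. Alternatives covered the reference, late Ct, missing values, the fit, neighbouring assays and each pool left out.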

Additional observations from a re-analysis of the deposited data

How the results depend on the processing

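In 25 alternative settings, the count of members past the threshold stayed at 0 for UL and UT against CD and for UL against UT. It was 1 with array weights for WL against CD, WL against UT and the F test. Leaving out a pool gave 0 to 1 for WL against CD, WL against UL, WL against UT and the F test, and the 1 came without WL 3. Without UT 3, WL 2 and WL 3, a setting chosen after seeing the data that leaves WL 1 alone and assumes that it varies as the other pools do, it was 2 for WL against CD (miR-694 and miR-695) and 1 for WL against UT. The members' median log2 fold change in WL was -0.0048 with array weights, 0.069 with neighbouring assays subtracted, -0.043 without these 3 pools and -0.30 to 0.030 without a pool. In UL it was 0.15 with RNU-43 as reference and -0.24 to -0.09 without a pool. In UT it was 0.74 with RNU-43, -0.12 with the median Ct and -0.028 to 0.20 without a pool.

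Signs turned for miR-707 (-0.11) and miR-713 (-0.18) without UT 3, also without UT 3, WL 2 and WL 3 (-0.11 and -0.18), for miR-719 without UT 1 (-0.41), for miR-721 without WL 3 (-0.055) and without the 3 pools (-0.24), and for miR-718 with RNU-43 (0.073). Without a pool, these values ran from -0.11 to 2.24 for miR-707, -0.18 to 1.89 for miR-713, -0.41 to 1.24 for miR-719 and -0.055 to 3.03 for miR-721. The other member log2 fold changes recomputed under these settings kept their sign; those of miR-130a-3p, miR-130b-3p and miR-301a-3p were not recomputed. The replicate block gave 0 members in each comparison and medians of -0.21, -0.21 and -0.0013 for WL, UL and UT. Same-numbered pools correlated above 0.1 in 7 of 18 pairs (range -0.27 to 0.26), and 5 of 12 pools were most like one with their own number. These counts do not decide whether the numbers pair the pools. The F test with only the groups compared was not run, since it needs all groups. MiR-693-5p was measured at Ct 29.89 or later in every pool, and miR-688 later still.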
